A study of Homo sapiens with 8 samples.

Results

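The 10 genes described here encode secreted glycoproteins of the extracellular matrix. They are HMCN1, FREM2, SPP1, SMOC2, THSD4, TNC, THBS1, TGFBI, MFAP5 and SPOCK1, out of 19775 genes with a probe set on the array. Their 27 probe sets are those that the platform annotation ties to 1 of these symbols alone. For each gene the probe set was chosen by its mean log2 level over all 8 arrays, the highest being used, a choice that does not look at the groups. All 10 genes passed the filter on dim probe sets, a mean log2 level of 4.46, as did 14180 genes in all. The genes themselves were proposed with earlier results of these arrays in view, so the numbers of members that changed are a description and the adjusted p-values do not take this choice into account.

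RNA came from a pair of established lines of human squamous carcinoma of the esophagus, KYSE30 and KYSE180, neither of them treated or genetically modified per the labels. Each line went through 4 rounds of transwell selection, in which cells migrate across a porous membrane. The cells that crossed gave the D sublines, labelled as stronger in motility, and those left behind gave the U sublines. Every line thus gave a U and a D group, named KYSE30 U, KYSE30 D, KYSE180 U and KYSE180 D here, with 2 arrays apiece from 2 parental populations that were selected independently. All sublines were grown for 2 passages after harvest before RNA was taken, so the arrays measured cultured sublines and not cells in the act of crossing. Each group stands for 1 line, and the spread within a group is the spread between populations of that line.

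Matrix glycoproteins link the collagen and laminin networks to cell surface receptors such as integrins, CD44 and syndecans. Some are structural parts of basement membranes or elastic microfibrils. Others, called matricellular proteins, change how firmly cells hold to the matrix and how they receive growth factors, above all TGF-beta. In squamous epithelium they lie mainly at the border between the basal cells and the stroma, and carcinoma cells can make many of them themselves.

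Across genes, replicate arrays correlated at 0.997 to 0.998, while the correlation between a KYSE30 and a KYSE180 array was 0.860 to 0.869. Control probe sets set KYSE180 D replicate 1 apart: its 3′ signal of ACTB exceeded the 5′ signal by 1.92 (log2) against 1.06 to 1.42 on the other 7 arrays. Results in KYSE180 are therefore also given without it where they rest on it. The epithelial markers CDH1 and EPCAM were high in every group, with mean log2 levels of 11.67 to 11.83 and 12.32 to 12.62. The basal keratin KRT14 lay below the filter in KYSE30 (3.54 in KYSE30 U and 4.13 in KYSE30 D) and at 13.62 and 13.38 in KYSE180 U and KYSE180 D, and KRT5 read 4.63 and 4.84 in KYSE30 against 12.30 and 12.27 in KYSE180. PKP1 (4.90 and 4.61) and DSG3 (7.17 and 7.11) were also lower in KYSE30 than in KYSE180 (10.28 and 10.18, 10.70 and 10.38). DSP read 10.71 to 12.20 and JUP 10.14 to 10.82 over the 4 groups. In KYSE30 D limma called JUP higher (0.45 ± 0.08, limma adjusted p = 0.0113), and KRT14 too, though below the filter. The 8 squamous markers with a probe set summed to 65.2 to 66.8 in KYSE30 and 93.0 to 94.6 in KYSE180. Many of the 10 genes are also made by fibroblasts. Of 9 fibroblast markers, 5 had a mean below the filter (COL1A2, COL3A1, LUM, PDGFRA and FAP). COL1A1 (7.19), THY1 (5.65), PDGFRB (5.28) and DCN (4.97) were above it. The summed log2 level of the 9 markers was 39.2 to 39.4 in KYSE30 U, 38.8 to 39.3 in KYSE30 D, 39.4 to 40.4 in KYSE180 U and 40.9 to 41.3 in KYSE180 D. Of 5 immune markers with a probe set, PTPRC, CD14 and CD163 had means below the filter while CD3E (4.51) and AIF1 (5.45) were above it, and the summed level was 20.6 to 21.7 over the 8 arrays. Of 5 endothelial markers, CDH5 and KDR were below the filter and PECAM1 (5.73), TEK (5.05) and VWF (4.996) above it, with sums of 21.5 to 23.2.

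In each line, some of the genes described here differed between the U and D sublines. The genes were proposed with earlier results of these arrays in view, so this does not describe matrix glycoproteins as a class. Of all tested genes, limma called 16.5% in KYSE30 and 3.75% in KYSE180 (adjusted p under 0.05). In KYSE30, FREM2, SPP1, SMOC2 and TNC were lower in KYSE30 D and THSD4 was higher. In KYSE180, HMCN1, THSD4 and THBS1 were higher in KYSE180 D, while SMOC2 and TNC were lower with calls that were lost in most of the other fits. THSD4 was thus higher, and SMOC2 and TNC lower, in the D sublines of both lines. The KYSE30 call of SMOC2 was lost without any 1 KYSE30 array. That of TNC was lost without KYSE30 U replicate 2 or KYSE30 D replicate 1. SMOC2 lay below the filter in KYSE180 D (3.41), so the size of its fall in KYSE180 is not settled. TGFBI, MFAP5 and SPOCK1 differed widely between the lines. They were not called between U and D in either line in the main fit of all 4 groups, which used the brightest probe set. Some other fits called MFAP5 in both lines and SPOCK1 in KYSE30. In this bulk RNA, fewer cells with a transcript and less transcript per cell cannot be told apart.

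**Figure D1:**
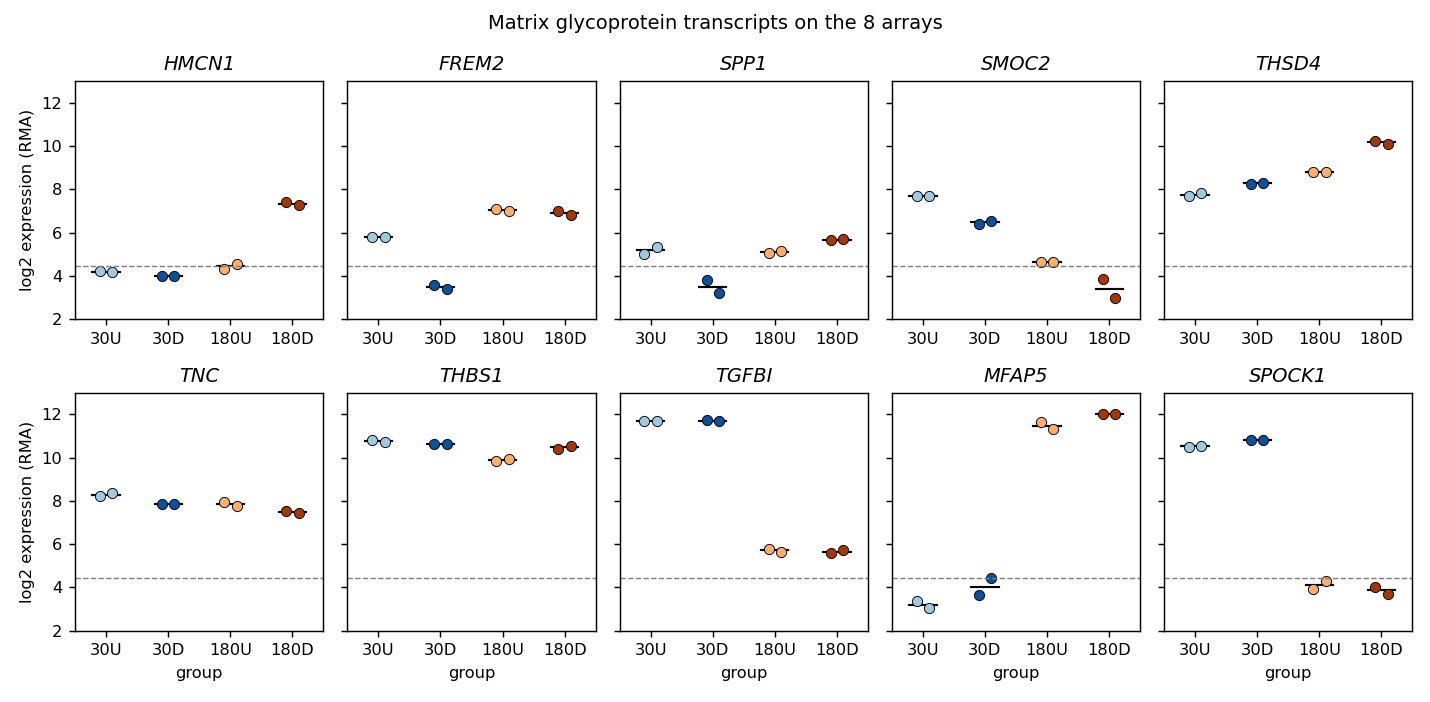
Log2 expression (RMA) of the 10 genes on each of the 8 arrays, 1 panel per gene. The horizontal axis gives the group (number of the line, then U or D), points are arrays, short bars are group means and the dashed line is the filter value of 4.46. HMCN1 stands above the line in KYSE180 D with a mean of 7.34, and TGFBI, MFAP5 and SPOCK1 part the lines.

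HMCN1 encodes hemicentin-1, a very large fibulin-family protein with many immunoglobulin domains that is found where epithelial cells meet basement membranes. Its log2 levels were 4.21 and 4.17 on the KYSE30 U arrays, 4.0 and 4.01 on the KYSE30 D arrays, 4.34 and 4.53 on the KYSE180 U arrays and 7.41 and 7.26 on the KYSE180 D arrays. Only the KYSE180 D arrays stood clear of the filter value, and they did not overlap any other group. Within the parental populations of KYSE180 the D subline exceeded its U partner by 2.93 and 2.88. The change from KYSE180 U to KYSE180 D was 2.90 ± 0.08 (log2, SE from 2 arrays per group, limma adjusted p = 3.24e-05), and without KYSE180 D replicate 1 it was 2.83 ± 0.09. HMCN1 entered the test only through KYSE180 D, since its means in the other 3 groups lay below the filter, and with no filter its adjusted p in limma was 7.26e-05. Since KYSE180 U lay just below the filter with a mean of 4.44, the rise measured from the filter value was at least 7.37-fold. In KYSE30 both groups were below the filter and the change did not pass (-0.18 ± 0.08, limma adjusted p = 0.176). The changes of the lines differed by 3.08 ± 0.11 (limma adjusted p = 2.84e-05). COL1A1, a fibroblast marker that carcinoma cells can also make, moved beside HMCN1 in KYSE180 and was 0.58 ± 0.11 higher in KYSE180 D (limma adjusted p = 0.0350). Its part in the result was not tested. The fibroblast markers DCN, PDGFRB and THY1 were not called in that line. COL1A1 changed by -0.39 ± 0.11 in KYSE30 and did not pass (limma adjusted p = 0.0518).

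FREM2 encodes a basement membrane protein that, with FRAS1 and FREM1, forms the Fraser complex anchoring epithelia to the tissue beneath. It read 5.78 and 5.81 in KYSE30 U, 3.58 and 3.37 in KYSE30 D, 7.07 and 7.01 in KYSE180 U and 6.99 and 6.81 in KYSE180 D. The KYSE30 D arrays were the lowest of all and the only ones below the filter. The fitted change in KYSE30 was -2.32 ± 0.09 (limma adjusted p = 3.38e-05), with -2.20 and -2.44 in its 2 populations, and FREM2 was at least 2.53-fold lower in KYSE30 D when measured from the filter value. In KYSE180 every D array was below every U array, but the change was small and did not pass (-0.14 ± 0.09, limma adjusted p = 0.449). The changes of the lines differed by 2.18 ± 0.13 (limma adjusted p = 0.000172).

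SPP1 encodes osteopontin, a phosphorylated glycoprotein that binds integrins and CD44 and is abundant in bone and in many carcinomas. Its log2 levels were 5.03 and 5.32 in KYSE30 U, 3.79 and 3.22 in KYSE30 D, 5.06 and 5.16 in KYSE180 U and 5.63 and 5.71 in KYSE180 D. The signal was modest throughout. Both KYSE30 D arrays lay below the filter and below all others, KYSE30 U and KYSE180 U overlapped, and both KYSE180 D arrays were the highest. SPP1 was lower in KYSE30 D by a fitted -1.67 ± 0.18 (limma adjusted p = 0.00183), which is at least 1.65-fold from the filter value. In KYSE180 the value was 0.56 ± 0.18 and did not pass (limma adjusted p = 0.153), although a fit of the 4 KYSE180 arrays alone called it (limma adjusted p = 0.0322). The changes of the lines differed by 2.23 ± 0.25 (limma adjusted p = 0.00278). Its other probe set read 1.88 to 2.42 on the 8 arrays, below the filter throughout.

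SMOC2 encodes a calcium-binding relative of SPARC, a matricellular protein. It stood at 7.69 and 7.70 in KYSE30 U, 6.42 and 6.52 in KYSE30 D, 4.65 and 4.64 in KYSE180 U and 3.84 and 2.98 in KYSE180 D. No groups overlapped, and the D arrays were lower in both lines. In KYSE30 the change was -1.22 ± 0.24 (limma adjusted p = 0.0141), a 2.34-fold fall between groups that were both above the filter. That call was not kept when any 1 KYSE30 array was left out (limma adjusted p from 0.0623 to 0.0760), although the change itself stayed between -1.28 and -1.17. In KYSE180 the fitted change was -1.24 ± 0.24 (limma adjusted p = 0.0371), but KYSE180 D lay below the filter and measured from the filter value the fall was at least 1.14-fold, so the size of that change rests on dim signals. With the parental population as a block its adjusted p in limma was 0.0689. The KYSE180 D arrays differed by more than any other pair of replicates of this gene. The KYSE180 change was -1.67 without KYSE180 D replicate 1 and -0.80 without KYSE180 D replicate 2. Each of these fits leaves 1 array in KYSE180 D and so does not measure the spread of that group. Of 15 alternatives for the KYSE180 change, 10 lost the call.

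TNC encodes tenascin-C, a large matricellular glycoprotein that is sparse in resting tissue and plentiful around healing wounds and tumours. It read 8.24 and 8.35 in KYSE30 U, 7.84 and 7.87 in KYSE30 D, 7.95 and 7.78 in KYSE180 U and 7.52 and 7.45 in KYSE180 D. The D arrays were below the U arrays of their line, and KYSE180 U overlapped KYSE30 D. The changes were of like size, -0.44 ± 0.07 in KYSE30 (limma adjusted p = 0.00870) and -0.38 ± 0.07 in KYSE180 (limma adjusted p = 0.0404), and their difference was 0.06 ± 0.10. The KYSE30 call was not kept without KYSE30 U replicate 2 or KYSE30 D replicate 1 (limma adjusted p up to 0.0649). The KYSE180 call was lost once the parental population entered as a block (limma adjusted p = 0.107) or without 7 of the 8 arrays in turn (limma adjusted p up to 0.127). Its 2 other probe sets had means of 3.78 and 2.46, below the filter.

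The 4 genes that were lower in KYSE30 D each have 1 promoter entry for a single start site in RefSeq (GRCh38.p14), and the 250 bases before that site are shown to set their letters beside each other. They lie at chr13:38686827-38687076, plus strand, for FREM2, chr4:87975464-87975713, plus strand, for SPP1, chr6:168440934-168441183, plus strand, for SMOC2 and chr9:115118158-115118407, minus strand, for TNC, and each is written 5′ to 3′ on the strand of its gene. Capitals mark matches, on either strand, to any of 6 motifs: the TATA box TATAAA, the CCAAT box CCAAT, the GC box GGGCGG, the AP-1 motif TGANTCA, the TEAD motif GGAATG and the SMAD motif CAGACA.
FREM2: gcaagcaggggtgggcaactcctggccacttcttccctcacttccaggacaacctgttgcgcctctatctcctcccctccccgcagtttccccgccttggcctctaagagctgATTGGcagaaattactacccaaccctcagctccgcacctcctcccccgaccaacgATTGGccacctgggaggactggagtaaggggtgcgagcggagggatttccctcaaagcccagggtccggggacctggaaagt
SPP1: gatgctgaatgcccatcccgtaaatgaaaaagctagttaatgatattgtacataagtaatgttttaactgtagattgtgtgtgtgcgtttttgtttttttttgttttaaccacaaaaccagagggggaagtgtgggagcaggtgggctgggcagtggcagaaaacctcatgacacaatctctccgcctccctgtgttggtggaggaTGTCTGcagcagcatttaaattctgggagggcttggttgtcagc
SMOC2: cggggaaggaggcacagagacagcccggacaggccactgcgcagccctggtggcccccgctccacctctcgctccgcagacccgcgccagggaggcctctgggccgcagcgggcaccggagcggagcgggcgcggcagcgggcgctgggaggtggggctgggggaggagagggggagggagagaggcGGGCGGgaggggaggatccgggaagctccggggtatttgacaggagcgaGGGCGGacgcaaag
TNC: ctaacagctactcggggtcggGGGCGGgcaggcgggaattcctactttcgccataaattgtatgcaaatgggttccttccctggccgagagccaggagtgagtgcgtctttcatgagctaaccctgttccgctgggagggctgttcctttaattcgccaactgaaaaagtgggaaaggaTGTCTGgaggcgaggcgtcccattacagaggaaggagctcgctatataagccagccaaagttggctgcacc

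FREM2 held 2 CCAAT boxes, both read on the opposite strand, with first bases 137 and 82 bases before the start. SPP1 held 1 match, the SMAD motif on the opposite strand with its first base 44 bases before the start, and TNC held the same motif on the same strand 71 bases before the start together with a GC box. SMOC2 held 2 GC boxes. Of 35116 promoters of this length in the table, 32.01% held a CCAAT box, 42.6% a GC box, 13.6% the SMAD motif, 11.9% the TEAD motif, 10.7% the TATA box and 6.57% the AP-1 motif. No motif overlapped another in these sequences. These are matches of letters and not measured binding sites.

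THSD4 encodes ADAMTSL6, a protein with thrombospondin repeats that binds fibrillin microfibrils. It was the only member with a call upward in both lines. Its levels were 7.69 and 7.80 in KYSE30 U, 8.24 and 8.30 in KYSE30 D, 8.81 and 8.81 in KYSE180 U and 10.24 and 10.10 in KYSE180 D. The groups stood in steps without overlap, and D lay above U in all 4 pairs of sublines. THSD4 rose 1.44-fold in KYSE30 (0.53 ± 0.07, limma adjusted p = 0.00359) and 2.56-fold in KYSE180 (1.36 ± 0.07, limma adjusted p = 0.000136), and the rise was larger in KYSE180 by 0.83 ± 0.10 (limma adjusted p = 0.00313). Without KYSE180 D replicate 1 the KYSE180 change was 1.29 ± 0.07. A further probe set of the gene past the filter gave 0.59 ± 0.10 and 1.07 ± 0.10, and the other 4 had means below the filter. With every probe set fitted and adjusted together, the larger rise in KYSE180 was called for the main probe set and not for the further one (limma adjusted p = 0.00584 and 0.0853).

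MFAP5 encodes a microfibril-associated glycoprotein found with fibrillin in elastic fibres. Its log2 levels were 3.37 and 3.05 in KYSE30 U, 3.66 and 4.43 in KYSE30 D, 11.65 and 11.30 in KYSE180 U and 12.01 and 12.03 in KYSE180 D. All KYSE30 arrays lay below the filter and all KYSE180 arrays far above it. The KYSE180 D arrays were above the KYSE180 U arrays, by 0.38 and 0.71 within the populations, but the change of 0.54 ± 0.24 did not pass (limma adjusted p = 0.281). Its other probe sets gave 0.73 ± 0.13 and 0.77 ± 0.17, of which only the first was called when every probe set was fitted together (limma adjusted p = 0.0444 and 0.0784), and the mean of its 3 probe sets gave 0.68 ± 0.06 (limma adjusted p = 0.00174). The KYSE30 value of 0.83 ± 0.24 lies between groups that were both below the filter and is not read as a rise. In that line the probe sets went both ways, from -0.16 to 0.83. Their mean was called upward there (0.33 ± 0.06, limma adjusted p = 0.0114), but all lay below the filter in KYSE30.

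THBS1 encodes thrombospondin-1, which binds CD47 and CD36, inhibits blood vessel growth and activates latent TGF-beta. Its levels were 10.79 and 10.73 in KYSE30 U, 10.64 and 10.62 in KYSE30 D, 9.86 and 9.95 in KYSE180 U and 10.42 and 10.54 in KYSE180 D. The KYSE180 D arrays were above the KYSE180 U arrays and stayed below those of KYSE30. THBS1 rose 1.49-fold in KYSE180 D (0.57 ± 0.06, limma adjusted p = 0.00494), with 0.68 and 0.47 in its populations and 0.64 ± 0.07 without KYSE180 D replicate 1. In KYSE30 the value was -0.13 ± 0.06 and did not pass (limma adjusted p = 0.233). The difference between the lines was 0.70 ± 0.09 (limma adjusted p = 0.00460).

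THBS1 had 7 probe sets, 5 of them past the filter, and they did not give 1 answer in KYSE30. The probe set with the highest level gave -0.13 there, while the other 4 gave 0.13 to 0.36, and the one with the third highest level passed upward when every probe set was fitted together (0.36 ± 0.07, limma adjusted p = 0.0195). The mean of the 5 was 0.14 ± 0.06 and did not pass (limma adjusted p = 0.190). A direction for THBS1 in KYSE30 is therefore not given. In KYSE180 all 5 were above 0 and 4 were called, with changes of 0.54 to 0.84. The difference between the lines was called for 3 of the 5, among them the 2 with the highest levels (0.70 ± 0.10 and 0.70 ± 0.09), but not for the third highest (0.18 ± 0.10, limma adjusted p = 0.313). The 250 bases before the RefSeq start of THBS1 (GRCh38.p14, chr15:39580829-39581078, plus strand) are shown because this gene rose in KYSE180 D, with the motif matches in capitals as above.
THBS1: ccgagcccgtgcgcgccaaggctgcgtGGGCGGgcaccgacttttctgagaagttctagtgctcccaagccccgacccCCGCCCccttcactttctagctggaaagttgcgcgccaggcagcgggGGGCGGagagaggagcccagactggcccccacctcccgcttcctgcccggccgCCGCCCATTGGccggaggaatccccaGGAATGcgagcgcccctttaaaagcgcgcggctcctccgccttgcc

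That sequence held 4 GC boxes, a CCAAT box with its first base 66 bases before the start that directly adjoins the last GC box, and a TEAD motif with its first base 46 bases before the start.

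**Figure D2:**
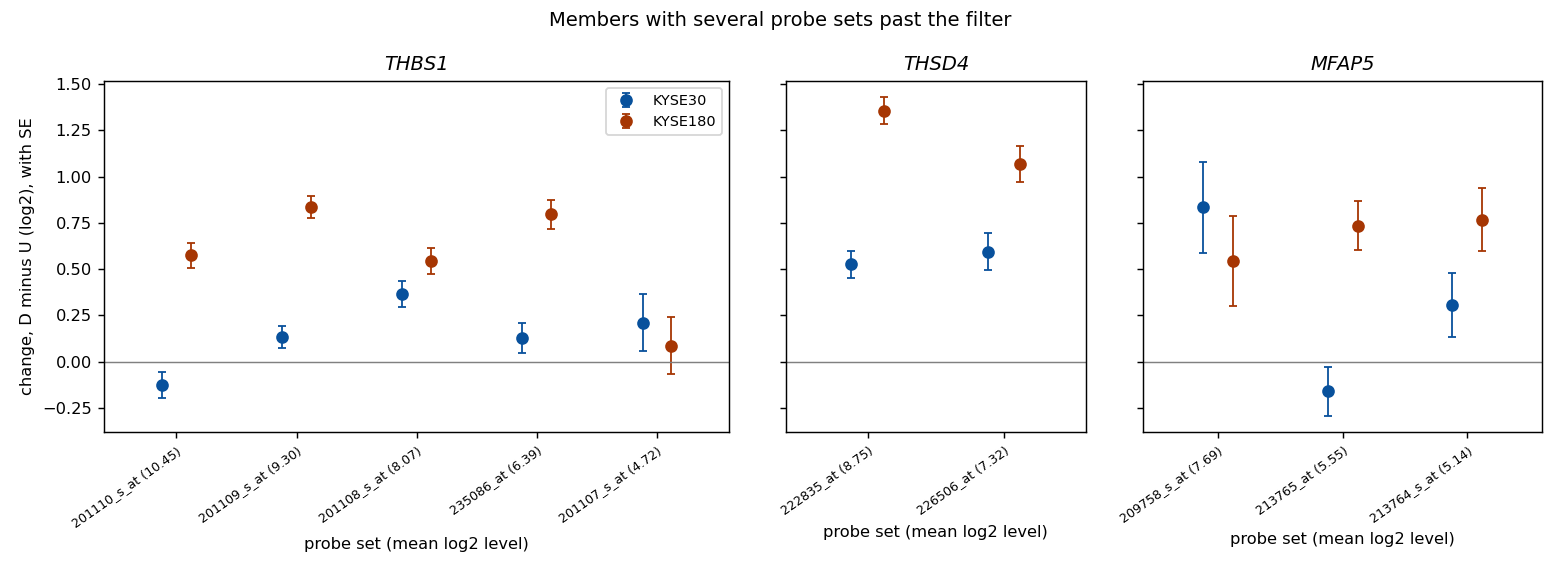
Change from U to D (log2, vertical axis, bars are SE) for each probe set past the filter of THBS1, THSD4 and MFAP5, ordered by mean log2 level, which stands in brackets beside the probe set on the horizontal axis. Blue points are KYSE30 and brown points KYSE180, and in KYSE30 the probe set of THBS1 with the highest level lies below 0 while the other 4 lie above it.

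TGFBI encodes a secreted protein induced by TGF-beta that binds collagens and integrins. It read 11.67 and 11.68 in KYSE30 U, 11.72 and 11.71 in KYSE30 D, 5.80 and 5.65 in KYSE180 U and 5.59 and 5.71 in KYSE180 D. U and D were close in both lines, and KYSE180 U and KYSE180 D overlapped. The changes were 0.04 ± 0.07 in KYSE30 and -0.07 ± 0.07 in KYSE180 (limma adjusted p = 0.780 and 0.621). KYSE180 was 64.3-fold below KYSE30 (-6.01 ± 0.05, limma adjusted p = 1.85e-10), with both lines above the filter. The 250 bases before its RefSeq start (GRCh38.p14, chr5:136028738-136028987, plus strand) are shown for this difference between the lines and held 3 GC boxes and none of the other 5 motifs.
TGFBI: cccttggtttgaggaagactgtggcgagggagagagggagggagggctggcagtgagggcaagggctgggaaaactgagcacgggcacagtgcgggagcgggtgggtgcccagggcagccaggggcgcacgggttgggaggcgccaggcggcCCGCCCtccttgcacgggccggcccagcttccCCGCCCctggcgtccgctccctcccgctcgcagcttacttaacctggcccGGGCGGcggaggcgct

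SPOCK1 encodes testican-1, a secreted proteoglycan of the SPARC family. Its levels were 10.51 and 10.52 in KYSE30 U, 10.82 and 10.83 in KYSE30 D, 3.94 and 4.32 in KYSE180 U and 4.02 and 3.71 in KYSE180 D. All KYSE180 arrays were below the filter, so no change is read in that line. In KYSE30 the D arrays exceeded the U arrays by 0.31 in each population. The change of 0.31 ± 0.14 did not pass when all 4 groups shared 1 estimate of the spread (limma adjusted p = 0.176), and it passed with the parental population as a block (0.31 ± 0.06, limma adjusted p = 0.0312) or in a fit of the KYSE30 arrays alone (limma adjusted p = 0.0146).

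**Figure D3:**
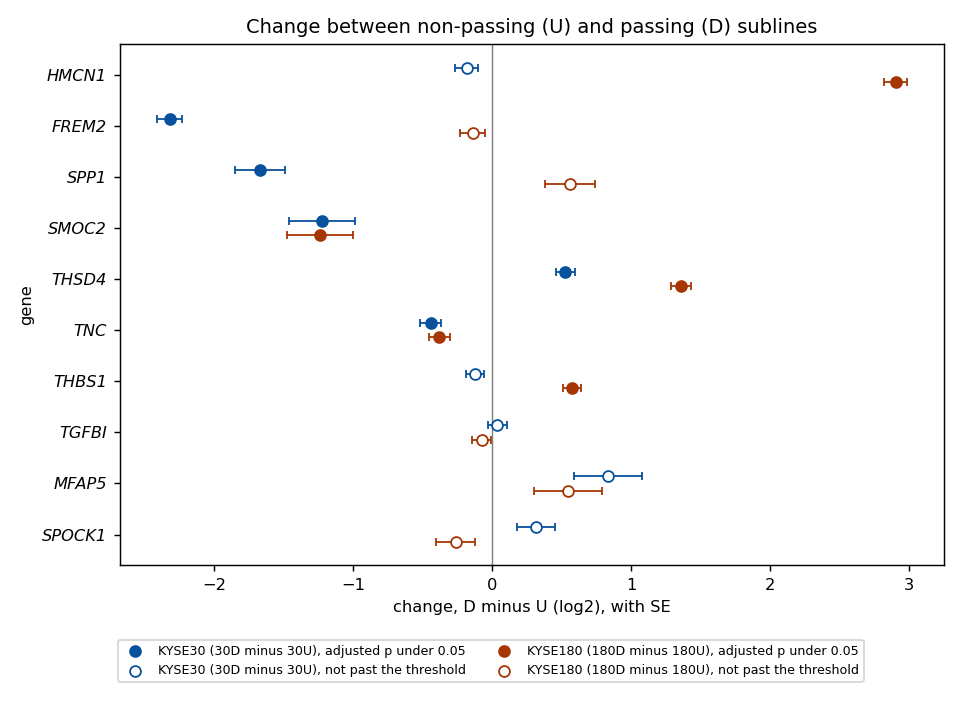
Fitted change from U to D (log2, horizontal axis, bars are SE) of the 10 genes in KYSE30 (blue) and KYSE180 (brown). Filled points have an adjusted p under 0.05, and HMCN1 in KYSE180 (2.90) and FREM2 in KYSE30 (-2.32) lie at the ends of the range.

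Of the 10 members, 1 was higher and 4 were lower in KYSE30 D, and 5 did not pass, where 16.5% of all tested genes were called (8.42% higher and 8.12% lower). Their median change was -0.15 against 0.01 over all genes. In KYSE180 D 3 were higher, 2 lower and 5 not called, where 3.75% of all genes were called (2.55% higher and 1.21% lower). After centring of every array by its median, calls over all genes in KYSE180 split into 269 higher and 236 lower instead of 361 and 171, those in KYSE30 into 1066 higher and 1311 lower instead of 1194 and 1152, and no member changed direction within a line. The members' median change in KYSE180, without that centring, was 0.24 against 0.02 over all genes. A direct test of whether the lines changed unequally called 5 members, HMCN1, FREM2, SPP1, THSD4 and THBS1, all higher in KYSE180 than in KYSE30, where 12.2% of all genes were called (6.94% higher and 5.21% lower). For SMOC2 that difference was -0.01 ± 0.33, and it turned from -0.45 without KYSE180 D replicate 1 to 0.42 without KYSE180 D replicate 2, so it rests on the spread of the KYSE180 D arrays.

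Between the lines, averaged over U and D, 5 members were higher and 5 lower in KYSE180, where 71.4% of all genes were called (38.7% higher and 32.7% lower). The widest gaps were those of MFAP5, at least 157-fold higher in KYSE180 by its brightest probe set (8.12 ± 0.17 on the log2 scale, limma adjusted p = 1.12e-08) and 5.41 and 5.92 by its others, of SPOCK1, at least 74.3-fold lower (-6.67 ± 0.10, limma adjusted p = 2.26e-09), and of TGFBI. MFAP5 entered the test only through KYSE180 and SPOCK1 only through KYSE30, since the other line lay below the filter. Their gaps are therefore a description, and their calls were kept with no filter. SMOC2 was at least 6.17-fold lower in KYSE180, with a fitted -3.05 ± 0.17 and a mean below the filter (4.03) in KYSE180. FREM2 (2.33 ± 0.06), HMCN1 (1.79 ± 0.06), THSD4 (1.48 ± 0.05) and SPP1 (1.05 ± 0.13) were higher there, but the average for HMCN1 comes from KYSE180 D alone and that for SPP1 from the D sublines, since KYSE30 U and KYSE180 U overlapped (5.18 and 5.11) and KYSE30 D was below the filter. The average for FREM2 also takes in KYSE30 D, which lay below the filter (3.48). Its U sublines stood at 5.80 in KYSE30 and 7.04 in KYSE180. TNC and THBS1 were lower by smaller amounts (-0.40 ± 0.05 and -0.50 ± 0.05). For THBS1, 3 of 5 probe sets were called lower in KYSE180 and 2 were not called.

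Of 30 genes listed as relatives of the members, by family or by name, 20 were tested. In KYSE30 D MFAP2 was higher and SPARCL1 lower, and in KYSE180 D FSTL1 and SPARCL1 were higher, so 10% were called in each line beside 16.5% and 3.75% of all genes. The medians were 0.06 and 0.04, beside 0.01 and 0.02 over all genes. SPARCL1, a relative of SPARC, lay near the filter in KYSE30 (4.56 and 4.11, a fall of at least 1.07-fold) and rose from 7.83 to 8.26 in KYSE180 D (0.43 ± 0.08, limma adjusted p = 0.0406, and 0.0897 with the parental population as a block). FSTL1, a secreted follistatin-like glycoprotein, rose by 0.56 ± 0.07 in KYSE180 D (limma adjusted p = 0.00585), though not in the mean of its probe sets (limma adjusted p = 0.137). MFAP2, a microfibril protein, rose by 0.59 ± 0.14 in KYSE30 D (limma adjusted p = 0.0305, and 0.0516 with the block).

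Among other matrix glycoproteins, 41 of 48 were tested. In KYSE30 D 5 were higher, 11 lower and 25 not called, and in KYSE180 D 3 were higher, 1 lower and 37 not called. These were 39.0% and 9.8% of the list, beside 16.5% and 3.75% of all genes, and the medians were -0.01 and 0.03 beside 0.01 and 0.02. IGFBP7, a secreted glycoprotein that binds insulin-like growth factors, went opposite ways, from 8.46 to 7.64 in KYSE30 (-0.82 ± 0.05, limma adjusted p = 0.000175) and from 6.96 to 7.94 in KYSE180 (0.99 ± 0.05, limma adjusted p = 0.000145). EFEMP1, a fibulin, did likewise, with -0.68 ± 0.06 and 0.66 ± 0.06 (limma adjusted p = 0.000628 and 0.00154). NTN4, a netrin of basement membranes, changed by -0.33 ± 0.05 in KYSE30 and 0.98 ± 0.05 in KYSE180 (limma adjusted p = 0.00812 and 0.000199). It went from 8.83 to 8.50 in KYSE30 and from 4.55, just above the filter, to 5.52 in KYSE180. FBN2, a fibrillin of microfibrils, was lower in the D sublines of both lines, by -0.50 ± 0.07 from 9.84 in KYSE180 (limma adjusted p = 0.0141, but 0.0521 with the block) and by at least 1.16-fold in KYSE30, where KYSE30 D lay below the filter. LGALS3BP, a secreted galectin-binding glycoprotein, rose by 0.71 ± 0.07 in KYSE30 D (limma adjusted p = 0.00143).

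**Figure D4:**
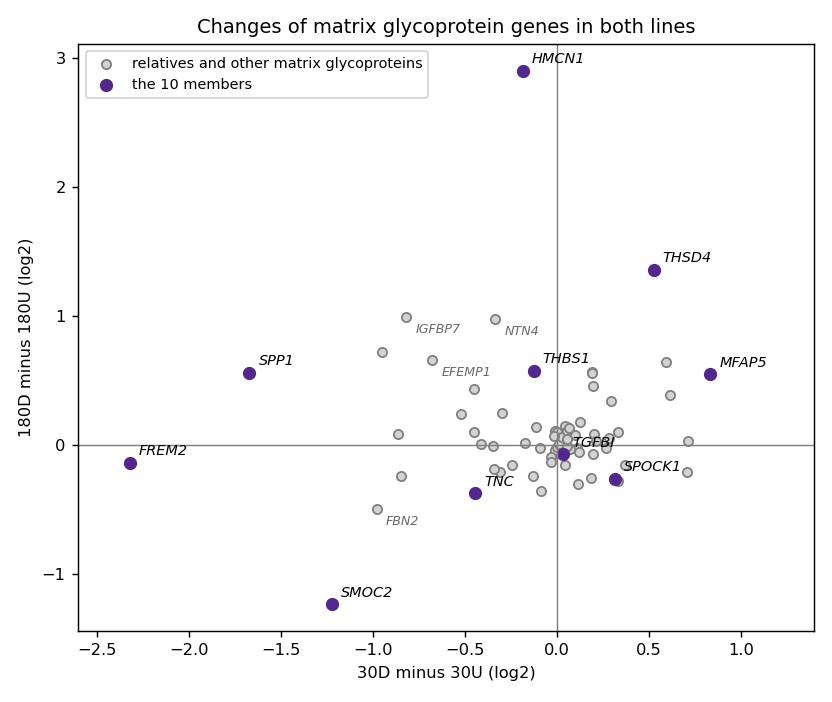
Change from U to D (log2) in KYSE30 on the horizontal axis and in KYSE180 on the vertical axis for the 10 members (purple) and for the 61 tested genes among their relatives and the other matrix glycoproteins (grey). HMCN1 lies at the top with 2.90 in KYSE180, FREM2 at the far left with -2.32 in KYSE30, and FREM2, SMOC2 and TNC lie below 0 on both axes.

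Of the receptors that bind these proteins 16 of 21 were tested, and 4 rose and 1 fell in KYSE30 D, or 31.2% beside 16.5% of all genes. In KYSE180 D limma called 0 of the 16 after adjustment, beside 3.75% of all genes, and 3 had an unadjusted p under 0.05. The medians were 0.12 and -0.03, beside 0.01 and 0.02 over all genes. CD44, a receptor for osteopontin and hyaluronan, rose by 0.47 ± 0.07 in KYSE30 D (limma adjusted p = 0.00446), the syndecan SDC4 by 0.36 ± 0.06 and the thrombospondin receptor CD47 by 0.27 ± 0.05 (limma adjusted p = 0.00883 and 0.0160, the latter 0.0544 with the block). ITGB8, an integrin subunit that helps to activate TGF-beta, fell from 9.52 to 8.80 (-0.72 ± 0.06, limma adjusted p = 0.000491). ITGAV, the alpha subunit shared by many of these receptors, stood at 11.40 in KYSE30 U and 11.53 in KYSE30 D and did not pass.

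In the list of TGF-beta ligands, receptors and induced genes, of which 16 of 18 were tested, 1 rose and 4 fell in KYSE30 D and 1 rose in KYSE180 D, or 31.2% and 6.2% beside 16.5% and 3.75% of all genes. The medians were -0.02 and 0.07, beside 0.01 and 0.02. The ligand TGFB2 went from 8.19 to 7.38 in KYSE30 (-0.81 ± 0.09, limma adjusted p = 0.00220) and lay below the filter in KYSE180. LTBP1, which holds latent TGF-beta in the matrix and also stands in the list of other matrix glycoproteins, changed by -0.52 ± 0.08 in KYSE30, the repressor SKIL by -0.51 ± 0.07 and TGIF1 by -0.25 ± 0.05 (limma adjusted p = 0.00586, 0.00348 and 0.0207). SKIL and TGIF1 were not called in the mean of their probe sets. The receptor TGFBR2 rose by 0.72 ± 0.08 in KYSE180 D (limma adjusted p = 0.00543, but 0.0785 in the mean of its probe sets).

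Of the enzymes that crosslink or modify matrix proteins 16 of 17 were tested, and 4 rose in KYSE30 D and 1 in KYSE180 D. Of all genes 8.42% were called higher in KYSE30 D and 2.55% in KYSE180 D, and the list's medians were 0.04 in both lines beside 0.01 and 0.02. The lysyl oxidase relative LOXL1 rose by 0.44 ± 0.07, the prolyl hydroxylase subunit P4HA2 by 0.40 ± 0.07, the lysyl hydroxylase PLOD3 by 0.31 ± 0.07 and the collagen chaperone SERPINH1 by 0.57 ± 0.15 in KYSE30 D (limma adjusted p = 0.00771, 0.00953, 0.0190 and 0.0444). PLOD2, another lysyl hydroxylase, rose by 0.37 ± 0.07 in KYSE180 D (limma adjusted p = 0.0433). The calls of SERPINH1 and PLOD2 were not kept with the block (limma adjusted p = 0.0863 and 0.0852) or after median centring of the arrays.

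The genes whose pattern within the lines was most like that of each member were found by Pearson correlation over the 8 arrays after the mean of each line had been taken away. These values describe 8 arrays that share their hybridisations, and with so few arrays high values arise readily. SHROOM3 (r = 0.998) and CAST (0.997) were nearest to HMCN1, ZWINT (0.999) and BCAT1 (0.996) to FREM2, and GPCPD1 (0.993) and TATDN3 (0.988) to SPP1. BCAT1, the cytosolic branched-chain aminotransferase, had group means of 10.13 in KYSE30 U, 8.21 in KYSE30 D, 11.80 in KYSE180 U and 11.75 in KYSE180 D, so it shared both the fall in KYSE30 D and the near-equal KYSE180 levels of FREM2. For THSD4 they were LGALS1 (0.993) and AFAP1L2 (0.992), and LGALS1, which encodes galectin-1, stood at 12.28, 12.76, 8.43 and 9.83 in the order KYSE30 U, KYSE30 D, KYSE180 U and KYSE180 D. The nearest to SMOC2 were TRIB2 (0.986) and ZDHHC3 (0.982), to TNC POTEM (0.989) and NCKAP1 (0.985), and to THBS1 UCA1 (0.991) and CDADC1 (0.987). TGFBI, MFAP5 and SPOCK1 had no call between U and D in the main fit. TGFBI was nearest to COMMD2 (0.994) and ZNF341 (0.975). Nearest to MFAP5 were C20orf203 (0.983) and LINC00269 (0.981), and to SPOCK1 FOXP4 (0.987) and PRDM2 (0.982).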

How the data were processed

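Gene expression was measured on 8 Affymetrix arrays, 2 per group. The deposited values are log2 expression per probe set, made by the authors with RMA, per the submitters' processing notes, its version being not given in the sources used here. RMA makes arrays alike in distribution and compresses low signals. Of 54675 probe sets 41091 had 1 gene symbol in the platform annotation, and 41037 of these matched a RefSeq table (GRCh38.p14) by Entrez ID, used for names. Probe sets with a mean under the 40th percentile (log2 4.46) were left out, and each gene kept its probe set with the highest mean. Where 1 group lay below that value, folds were measured from it and given as lower bounds, since it stands in for background and is not a detection call.

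Group means were fitted with limma 3.58.1 in R 4.3.3 (lmFit and eBayes, two-sided), with Benjamini-Hochberg adjustment over 14180 genes and a threshold of 0.05. The fit was tested on simulated data. All changes are log2, D minus U, with the SE of the fit from 2 arrays per group, which limits precision. The labels name the 4 pairs of sublines that share a parental population: replicates of like number in KYSE30, and KYSE180 U replicate 1 with KYSE180 D replicate 2 and the reverse in KYSE180. Deviations of paired arrays from their group means correlated at -0.02 in KYSE30 and 0.02 in KYSE180. Members and lists were chosen with earlier results of these data known. All 10 members are named, up to 4 called genes with the smallest p per list and line, and the 2 genes most like each member. Alternatives were the filter, the probe sets, a block for the parental population, an intensity trend, centring, fits of 1 line, an additive model and leaving out each array; fitting every probe set together was chosen after seeing the data. Promoter letters came from a supplied set of RefSeq promoters that held entries for 7 of the 10 members.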

Additional observations from a re-analysis of the deposited data

Results flagged for a closer look

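A direct limma test asked whether the lines changed unequally from U to D (adjusted p under 0.05 over all genes). It called 5 of the 10 members, beside 12.2% of all genes (6.94% higher and 5.21% lower). The members were chosen with earlier results of these data known. The KYSE180 change exceeded that of KYSE30 by 3.08 for HMCN1, 2.23 for SPP1, 2.18 for FREM2, 0.83 for THSD4 and 0.70 for THBS1 (log2). HMCN1 was above the filter in KYSE180 D alone, FREM2 and SPP1 fell below it in KYSE30 D alone, and THSD4 rose in both lines. Among the other matrix glycoproteins and relatives the difference was 1.81 for IGFBP7, 1.33 for EFEMP1, 1.31 for NTN4, 0.88 for SPARCL1, 0.48 for FBN2 and 0.37 for FSTL1, and LGALS3BP stood at -0.69. Among TGF-beta genes it was 0.93 for TGFB2, 0.76 for LTBP1, 0.76 for TGFBR2, 0.55 for SKIL and 0.32 for TGIF1. Among receptors ITGB8 stood at 0.69, CD44 at -0.44 and CD47 at -0.32, and the enzyme P4HA2 at -0.58. TGFB2 lay below the filter in KYSE180, and NTN4 lay just above it in KYSE180 U (4.55). In the mean of the probe sets of a gene the difference was 0.44 for TGFB2 and still called, and it was not called for LTBP1 (0.36, limma adjusted p = 0.067), TGFBR2 (0.43, 0.112), SKIL (0.26, 0.143), TGIF1 (0.18, 0.318), ITGB8 (0.47, 0.0813), FSTL1 (0.24, 0.3) or CD47 (-0.34, 0.0562). CD44 lost its call with no filter and without any 1 array of KYSE30 U, KYSE30 D or KYSE180 U (limma adjusted p up to 0.0962). P4HA2 lost its call without KYSE30 U replicate 2 or KYSE30 D replicate 2 (limma adjusted p up to 0.0528). FBN2 lost its call in 8 of 14 alternatives, and since KYSE30 D was below the filter for this gene, no direction is read from its difference.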

How the results depend on the processing

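Of the 25 changes of members past the threshold, 21 stayed past it in the same direction under every alternative that gave a value; the others were those of SMOC2 and TNC in each line. HMCN1, SPP1 and SMOC2 gave no value with a filter at the 60th percentile. Of 608 alternative values for the members 562 kept direction and side of the threshold, 27 lost the call, 13 gained one and 6 turned sign. Those that turned were THBS1 in KYSE30 with the mean of its probe sets (0.14), and the difference between the lines for SMOC2 without KYSE30 D replicate 2 (0.039) or KYSE180 D replicate 2 (0.42), for TNC without KYSE180 U replicate 2 (-0.022) and for MFAP5 with the mean of its probe sets (0.36) or without KYSE30 D replicate 2 (0.096). Without 1 array that difference ranged from -0.45 to 0.42 for SMOC2, from -0.022 to 0.15 for TNC and from -0.67 to 0.096 for MFAP5. Over all genes 532 changed in KYSE180, against 311 with no filter, 195 in the arrays of the line alone and 1069 with an intensity trend, and 209 to 502 without 1 array. The difference between the lines was called for 1723, against 1142 with no filter and 2700 with the trend, and 727 to 1702 without 1 array. The lowest of these counts came without KYSE180 D replicate 1 (209) and KYSE30 D replicate 1 (727). In KYSE30 the 2346 calls became 834 (without KYSE30 U replicate 2) to 2553 without 1 array, and 9537 to 10082 genes differed between the lines, of 10125. With the parental population as a replicate block 230 genes were called in KYSE180 and 1011 for the difference between the lines. Among the members the block removed the calls of SMOC2 and TNC in KYSE180 and added SPOCK1 in KYSE30 and its difference between the lines (-0.58, limma adjusted p = 0.0244). That SPOCK1 difference takes in KYSE180 levels that were all below the filter, so its size is not read. Among the other named genes the block also removed the calls of TGIF1 in KYSE30 (limma adjusted p = 0.0589) and of FSTL1, FBN2, CD47 and TGIF1 for the difference between the lines. Leaving out any 1 KYSE30 array removed the KYSE30 calls of MFAP2, CD47, PLOD3, SERPINH1 and TGIF1, as leaving out either KYSE180 U array did for MFAP2 and SERPINH1; LOXL1 and P4HA2 lost theirs without KYSE30 U replicate 2 or KYSE30 D replicate 2, SDC4 without KYSE30 U replicate 1 or KYSE30 D replicate 2 and SPARCL1 without KYSE30 U replicate 2 or KYSE30 D replicate 1. In KYSE180, SPARCL1 was called only without KYSE180 D replicate 2, PLOD2 only without either KYSE30 U array, and FBN2 was lost without either KYSE180 U array or KYSE180 D replicate 1. Fewer genes or arrays enter several of these fits, and the cause of the other shifts was not tested. Signals near or below the filter limit HMCN1 outside KYSE180 D, FREM2 in KYSE30 D, SPP1 throughout, MFAP5 in KYSE30, and SMOC2 and SPOCK1 in KYSE180.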
